A study of Caenorhabditis elegans with 6 samples.

Results

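The subject here is the transcriptome of wild-type *Caenorhabditis elegans* larvae of the first stage (L1), shortly after they were given food. It was read from the 3 wild-type libraries of a series of 6. The other 3 libraries, from *mrg-1* mutant larvae, were not used here, and nothing below compares genotypes. Of the 20392 genes in the deposited count table, the 12 encoded by the mitochondrial genome were left out, so that 20380 nuclear genes are described. All 3 libraries came from N2, the standard laboratory strain, with no transgene or treatment named in the labels. Gravid adults, matched in number to the 2000 to 4000 used on the mutant side, were washed from plates and dissolved with hypochlorite, which spares the embryos. The embryos hatched in M9, a buffer without food, over 18 h, and the larvae were then fed for 2 h 30 min. Each library is therefore a pool of whole animals, which the series' design text calls a biological replica. Libraries were made from 2 ng of total RNA.

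A larva that hatches without food stops before its first postembryonic cell divisions, and feeding starts them. At this stage the worm already has a working pharynx, intestine, epidermis, muscle and nervous system, but its gonad is a primordium with a pair of germ cell precursors and their somatic neighbours. It makes neither sperm nor oocytes, and its cuticle is the larval one. Levels are given as TPM, a length-corrected share of all transcripts, in which each count is divided by the deposited gene length and each library is scaled to the same sum over nuclear genes, so that genes can be set against each other. A gene is termed silent when it had 0 counts in every one of the 3 libraries.

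The libraries held 19238422, 28964051 and 39063186 counts. Mitochondrially encoded genes took 10.6%, 23.1% and 45.6% of them, which left 17191073, 22267493 and 21267888 nuclear counts in libraries 1, 2 and 3. After this step the libraries were of similar depth. Among the mitochondrial genes left out, *MTCE.34* alone had 969564, 4825236 and 12116310 counts in libraries 1, 2 and 3. Its deposited length was 2855 bases, against an annotated exon length of 336 bases. At least 1 count was found for 15454, 14088 and 15022 nuclear genes, and for 15454, 13966 and 14880 once each library was thinned to the smallest nuclear total (14767 ± 750, SD, n = 3). The library with the most nuclear counts, library 2, had the fewest genes with a count.

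Most nuclear genes were detected in these larvae. Of the 20380 nuclear genes, 13039 (63.98%) had a count in all 3 libraries, 1710 in a pair of them, 2027 in a single library, and 3604 (17.7%) were silent. The mean level was 1 TPM or more for 13029 genes (63.9%), and 10740 genes reached that level in each library. The most filled range was 10 to 100 TPM, with 6559 genes, followed by 1 to 10 TPM with 4604. A further 2671 genes lay between 0.1 and 1 TPM and 1076 below 0.1 TPM. The median over all nuclear genes was 4.94 TPM.

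**Figure D1:**
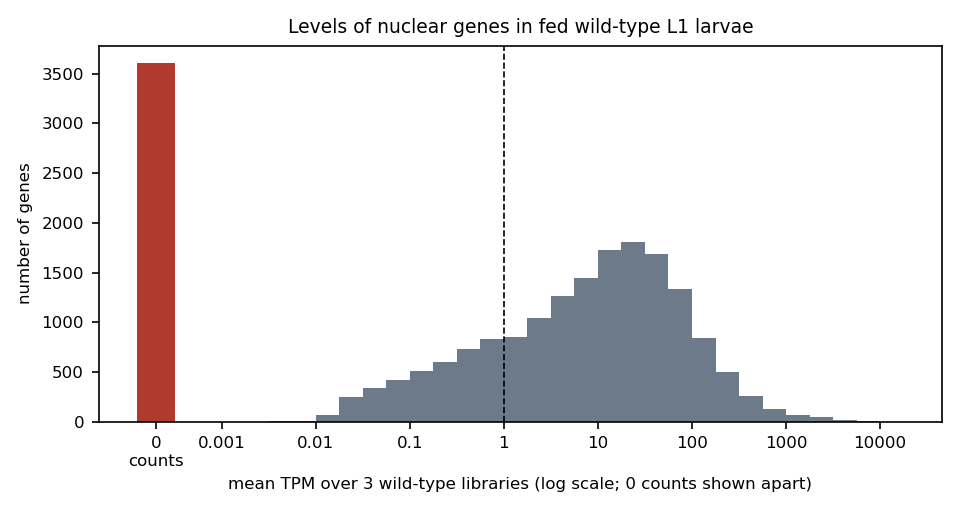
Number of nuclear genes (vertical axis) by mean TPM over the 3 wild-type libraries (horizontal axis, log scale). The red bar counts the 3604 genes with 0 counts in each library, the dashed line marks 1 TPM, and the main peak lies between 10 and 100 TPM.

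A small number of genes supplied much of the RNA. The 138 genes of 1000 TPM or more held 30.9% of the summed TPM, and the 1728 genes between 100 and 1000 TPM another 43.2%. The 100 highest genes held 28.3%, 28.2% and 23.4% in libraries 1, 2 and 3 (26.7 ± 2.82%, SD, n = 3), the lowest share being that of library 3. It took 438, 422 and 530 genes, counted from the top of each library, to reach 50% of the summed TPM.

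The highest genes served protein synthesis, protein folding and energy supply. By the roles assigned here, ribosomal proteins made up 9 of the 25 highest genes and translation factors another 3. Chaperones, ion pumps and mitochondrial energy supply had 2 each. For 2 of the 25 no role was assigned, so that these counts are minima. The gene with the highest mean was *eef-1A.2* (chromosome X, 7823654 to 7825769), which encodes elongation factor 1-alpha, the protein that brings aminoacyl-tRNA to the ribosome. It stood at 8877, 9426 and 8899 TPM in libraries 1, 2 and 3, so that its spread was small (9068 ± 311 TPM, SD, n = 3). Its near-identical paralog *eef-1A.1* (chromosome III, 6970026 to 6971712) had 7781, 3329 and 2255 TPM, and how reads shared by the pair were counted is not given in the sources used here. Their levels are uncertain to that extent.

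*hsp-90* (chromosome V, 14684918 to 14688545), the cytosolic HSP90 chaperone, came next with 10863, 8051 and 7017 TPM, and *hsp-1*, a constitutive HSP70, had 7613, 6739 and 6151 TPM. The highest ribosomal protein gene was *rpl-3* (chromosome III, 3867854 to 3869587), with 10353, 8039.7 and 5714 TPM. It was followed by *rpl-18A* with 5669, 5782 and 5179 TPM and *rps-3A* with 7283, 5047 and 4229.8 TPM. Among the others were *rps-8*, *rps-3*, *rpl-6*, *rpl-18*, *rpl-4* and *rps-15*, with means between 2938 and 4674 TPM. *rack-1*, which encodes a scaffold protein bound to the small ribosomal subunit, ranged widely, from 2851 TPM in library 3 to 9845 TPM in library 1. *inf-1*, the eIF4A helicase of translation initiation, had 2844, 2649 and 3707 TPM.

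Energy supply was represented by *ant-1.1*, the adenine nucleotide carrier of the inner mitochondrial membrane, with 8689.9, 9238 and 5491 TPM. *atp-1*, the alpha subunit of ATP synthase, had 4955, 4149.7 and 3728 TPM. The ion pumps were *vha-10*, a subunit of the proton-pumping V-ATPase, with 3746, 6920.0 and 6140.1 TPM, and *eat-6*, the alpha subunit of the sodium-potassium ATPase, with 4732, 2189 and 1915 TPM. *ahcy-1*, the hydrolase that clears S-adenosylhomocysteine after methylation reactions, had the smallest spread of the 25, at 5720.2, 5469.6 and 5753 TPM. The list also held *ftt-2*, a 14-3-3 protein with 5293 TPM on average, *act-4*, a muscle actin with 3195 TPM, and *osm-11*, a secreted Notch co-ligand with 1902, 3252 and 3922 TPM. *Y69A2AR.18* (3181 TPM) and *F01G4.6* (3118 TPM) carry sequence names and were not assigned a role here, which does not mean that none is known.

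The order within the 25 is not fixed by these libraries. In each of the 24 pairs of neighbours by rank, the ranges over the 3 libraries overlapped. The first gene stood 3.09-fold above the 25th, while the SD of log2(TPM + 1) among libraries ran from 0.04 for *ahcy-1* to 1.13 for *rps-3*, which had 5974, 5669 and 1491 TPM. Of the 25 genes, 15 had their highest value in library 1, where 39.2% of all genes of 1 TPM or more had theirs. In library 3, 18 of the 25 had their lowest value, and the share of all genes lowest there was not computed. All 25 were among the 100 highest in each library, and 62 genes were in the top 100 of all 3. By chromosome, the highest genes were *ahcy-1* on I, *hmg-1.1*, an HMG-box chromatin protein with 2117, 3107 and 3415 TPM, on II, *rpl-3* on III, *hsp-1* on IV, *hsp-90* on V and *eef-1A.2* on X.

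**Figure D2:**
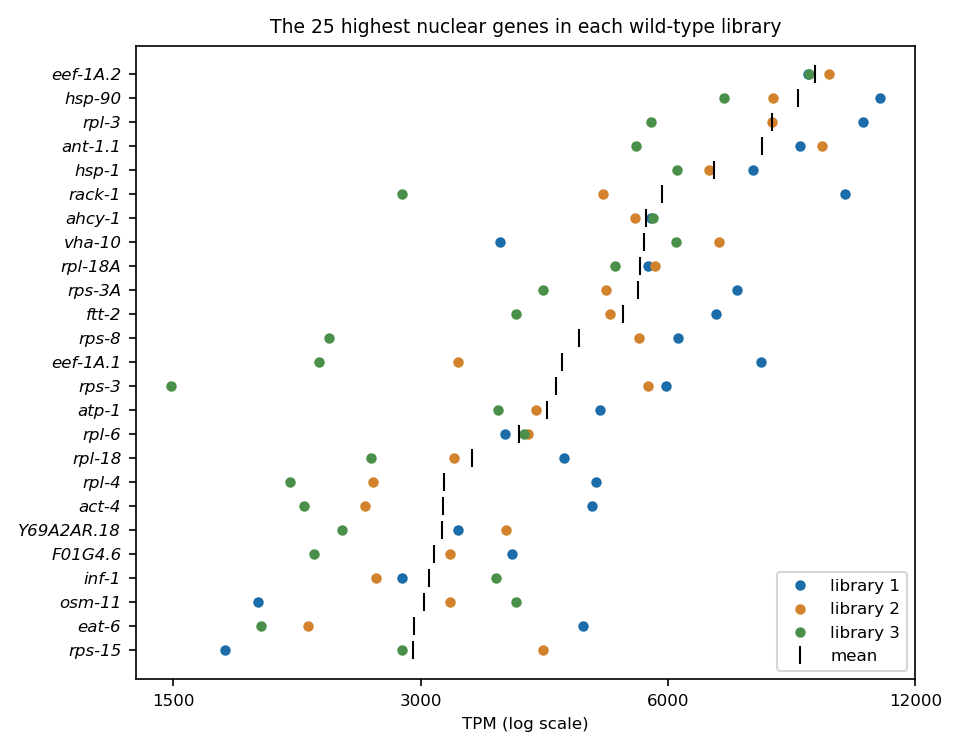
TPM (horizontal axis, log scale) of the 25 nuclear genes with the highest means, in order of the mean. Each point is 1 library and the tick is the mean, so that *ahcy-1* shows as a tight group near 5648 TPM and *rack-1* and *rps-3* as wide ones.

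The protein synthesis genes as a family were high throughout. The 76 genes named *rpl* or *rps* had a median of 549 TPM, 67 of them reached 100 TPM, and none was silent. Together they held 9.34%, 9.07% and 6.72% of the summed TPM in libraries 1, 2 and 3. The stem *rla* was searched for too, but no gene carried it. *rpl-42* was the 1 member below 1 TPM, with a single count in library 2 and none in the others. Of the 8 elongation and initiation factors listed, all were at 100 TPM or more, with a median of 1823 TPM. The ribosomal proteins of the mitochondrion were lower, with a median of 37.5 TPM over the 41 *mrpl* genes and 54.7 TPM over the 29 *mrps* genes, none silent.

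Genes of energy metabolism followed. All 19 listed genes of the citric acid and glyoxylate cycles were above 1 TPM, with a median of 306 TPM. *mdh-2*, the mitochondrial malate dehydrogenase, had 1422, 1698 and 1435 TPM, and *icl-1*, the enzyme of the glyoxylate shunt that embryos and larvae use to turn fat into sugar, had 361, 423 and 291 TPM. The 26 nuclear genes of the respiratory chain had a median of 166 TPM. Among 18 glycolysis and fermentation genes the median was 146 TPM, led by *aldo-2*, an aldolase, with 1057, 734 and 514 TPM. The 20 subunits of the V-ATPase had a median of 1009 TPM, and 18 of them were at 100 TPM or more.

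Most of the listed chaperone genes were at 100 TPM or more, and 4 had 0 counts. Of 26 listed heat shock and chaperone genes, 20 were at 1 TPM or more, with a list median of 286 TPM. The chaperonin subunits *cct-5* and *cct-7* averaged 946 and 856 TPM, and *hsp-6*, the mitochondrial HSP70, had 1262, 492 and 464 TPM. The heat-inducible *hsp-70* was at 3.02, 0.498 and 0.0391 TPM. Of the small heat shock genes that respond to heat, *hsp-16.2* had 211, 144 and 531 TPM, whereas *hsp-16.1*, *hsp-16.11*, *hsp-16.48* and *hsp-16.49* had 0 counts. Those 4 genes lie in duplicated pairs, and 0 counts for them cannot be told apart from reads left uncounted at matching copies.

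Markers of the differentiated tissues were present. Since these are whole animals, fewer cells of a type and less RNA per cell cannot be told apart in any of the values that follow. Body wall muscle markers were the highest of the tissue lists, with a median of 357 TPM over 20 genes, all above 1 TPM. *unc-27*, a troponin I, had 2361, 3497 and 2004 TPM. *lev-11*, the tropomyosin, had 1979, 2340.0 and 1869.6 TPM, *unc-15*, the paramyosin, 1919, 1116 and 1137 TPM, and *unc-54*, the major muscle myosin heavy chain, 992, 370.0 and 354 TPM. The muscle transcription factor *hlh-1* was the lowest of the 20, at 7.04 TPM on average.

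The 18 intestinal markers had a median of 126 TPM and were all above 1 TPM. The cathepsin-like protease *asp-1* had 3618, 2294 and 999 TPM, and *act-5*, the actin of the microvilli, had 1379.8, 749.6 and 331 TPM. *ifb-2*, an intermediate filament of the intestine, had 636, 244 and 101 TPM. All 3 genes were highest in library 1 and lowest in library 3. *erm-1*, the ezrin-like protein of the apical membrane, was closer between libraries, with 713, 717 and 879 TPM.

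In the pharynx list, 14 of 16 genes were at 1 TPM or more, with a median of 19.1 TPM. The pharyngeal myosin heavy chains *myo-2* and *myo-1* had 509, 194 and 108 TPM and 437, 142.2 and 117 TPM. *pha-4*, the FoxA factor that specifies the organ, had 72.5, 49.03 and 27.9 TPM. The gland genes *phat-1* and *phat-2* were the 2 members below 1 TPM, and *phat-2* had 0 counts.

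Epidermal and seam cell markers had a median of 30.7 TPM over 18 genes. They included *grd-10* with 487, 672 and 248 TPM, *elt-3*, a GATA factor of the epidermis, with 59.9, 78.2 and 181 TPM, and *lin-26* with 113, 123 and 131 TPM. The 5 members below 1 TPM were *bro-1*, *wrt-10*, *lin-22*, *dpy-7* and *nhr-73*, and *nhr-73* had 0 counts. *dpy-7* is a cuticle collagen that is made before each molt.

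All 20 pan-neuronal markers were above 1 TPM, with a median of 80.0 TPM. The prohormone convertase *egl-3* had 992, 770 and 937 TPM, the SNAP-25 homolog *ric-4* 449, 833 and 1269 TPM, and *rab-3*, a synaptic vesicle GTPase, 431, 429 and 442 TPM. The genes that define single transmitters were lower, with a median of 13.5 TPM over 14 genes and 42.0 TPM as the highest mean, that of *unc-25*, the GABA-making enzyme. Peptide gene families had medians of 29.7 TPM (*flp*) and 23.4 TPM (*nlp*), with high single members. *flp-1*, an FMRFamide-like peptide gene, had 889, 1731 and 1102 TPM, and *nlp-49* had 145, 738 and 832 TPM. Of 31 *flp* genes 30, and of 78 *nlp* genes 66, were at 1 TPM or more.

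**Figure D3:**
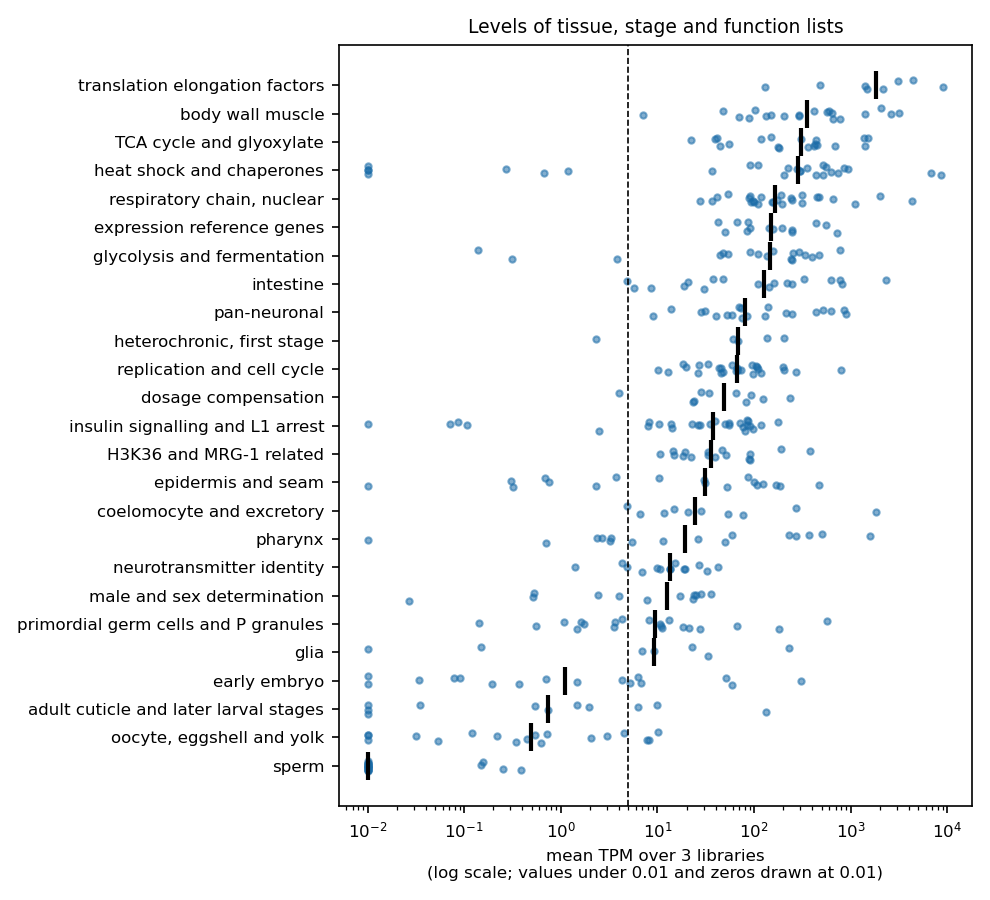
Mean TPM over the 3 libraries (horizontal axis, log scale) for each member of 25 gene lists, in order of the list median (black tick). The dashed line is the median of all nuclear genes, 4.94 TPM, and sperm, oocyte, adult and early embryo lists lie below it.

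Genes of the first larval stage were present, and collagens of later cuticles were low. *lin-14*, which specifies fates of the first larval stage and is turned off later by the *lin-4* microRNA, had 245, 183 and 182 TPM. *lin-28*, the RNA-binding protein that acts with it, had 104.1, 146 and 158 TPM, and *hbl-1* had 53.4, 46.5 and 81.6 TPM. The adult cuticle collagen *col-19* had 1 count in library 1 and none in the others. *col-7*, *col-62* and *rol-6* of the same list had 0 counts, and *bli-1* and *bli-2* averaged 1.94 and 0.735 TPM. *lin-41*, which acts in later stages, was not low, at 156, 95.1 and 149.7 TPM.

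Genes of sperm formation were at or near 0, and most genes of oocytes, eggshell and yolk were low. Of 21 sperm markers, 17 were silent, and the other 4, *spe-38*, *spe-9*, *gsp-4* and *spe-41*, averaged 0.151 to 0.390 TPM. The silent markers include *msd-1*, *msd-3* and *ssp-9*, which share an annotation name with another identifier. They also include *msp* genes, which are close copies of each other. For these genes, 0 counts cannot be told apart from reads left uncounted at matching copies. The major sperm protein family had 29 of 30 members at 0 counts, and the exception, *msp-50*, had a single count. Among the yolk genes *vit-3* and *vit-4* had 0 counts, *vit-5* had 6 counts in library 3, and *vit-2* had 1, 0 and 83 counts. Whether reads of the yolk genes were left uncounted at close copies was not tested. The 18 genes for oocyte, eggshell and yolk had a median of 0.493 TPM, and 6 of them reached 1 TPM. *cpg-2*, an eggshell chondroitin proteoglycan, was their highest, with 9.07, 4.259 and 17.3 TPM.

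The 16 genes listed for the early embryo had a median of 1.09 TPM, and 8 of them reached 1 TPM. Those 8 had median deviations of -0.19, 0.12 and 0.02 from the 3-library mean of log2(TPM + 1) in libraries 1, 2 and 3. *pos-1* and *mex-1*, which encode maternally supplied RNA-binding proteins, had 2.58, 16.18 and 0.0694 TPM and 2.65, 17.5 and 0.0410 TPM. Both were highest in library 2 and had 1 count each in library 3. The endoderm specifiers *end-1* and *end-3* had 2 and 3 counts, all in library 3. *skn-1*, which has a maternal role and a later one in stress responses of the intestine, was high in each library, at 252, 266 and 399 TPM.

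Most germline genes listed were detected. The 20 genes for primordial germ cells and P granules, the RNA-protein bodies of germ cells, had a median of 9.45 TPM, and 18 of them reached 1 TPM. *cgh-1* and *car-1*, also expressed in body cells, led with 574 and 181 TPM. *pgl-1*, a P granule scaffold, had 15.3, 0.744 and 16.16 TPM, its low value being that of library 2. *glh-1*, the Vasa-like helicase, had 30.2, 17.7 and 15.3 TPM. *nos-2* and *mes-1* were below 1 TPM.

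Cell cycle genes were all detected. The 26 listed had a median of 66.3 TPM and none was below 1 TPM. *pcn-1*, the PCNA sliding clamp, had 780, 919.6 and 692 TPM, *mcm-7*, a helicase subunit, 176, 255 and 376 TPM, and *rnr-2*, the small subunit of ribonucleotide reductase, 204, 204 and 205 TPM. The insulin and arrest list, which holds the pathway that couples feeding to growth, had a median of 37.2 TPM over 28 genes. *daf-16*, the FoxO factor, had 138, 128 and 266 TPM, and *daf-2*, the insulin receptor, had 97.8, 62.6 and 67.4 TPM. Among the insulin-like peptides, 18 of 39 were at 1 TPM or more and 7 were silent. *ins-5* led them with 41.5, 63.0 and 86.2 TPM. *sod-3*, a superoxide dismutase known as a target of *daf-16*, had counts in 1 library, at 0.256 TPM.

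The gene that the series perturbs elsewhere, *mrg-1* (chromosome III, 12871029 to 12874656), encodes a chromodomain protein that reads methylated histone H3. Its wild-type level was 48.1, 22.3 and 28.6 TPM (33.01 ± 13.5 TPM, SD, n = 3). A list of 16 genes related to the MRG-1 protein or to methylation of histone H3 at lysine 36 had a median of 36.2 TPM. All 16 were above 1 TPM. *hda-1*, a histone deacetylase, was the highest with 262, 435 and 451 TPM. *met-1*, which methylates this residue during transcription, had 89.4, 72.9 and 106 TPM, and *mes-4*, which maintains the mark in the germ line, had 21.4, 9.41 and 25.01 TPM.

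The X chromosome was close to the autosomes among expressed genes. In hermaphrodites the dosage compensation complex lowers transcription from both X chromosomes, and its 10 listed genes had a median of 49.1 TPM, led by *dpy-30* with 237, 262 and 201 TPM. Over genes of 1 TPM or more, 1934 on X and 10785 on the autosomes, the X median of log2(TPM + 1) lay below that of the autosomes by 0.08, 0.05 and 0.13 in libraries 1, 2 and 3 (a mean difference, X minus autosomes, of -0.09 ± 0.04, SD, n = 3). The sign depends on which genes are counted. With silent and low genes kept, the difference was 0.70 and X was the higher. Of X genes 12.1% were silent, against 17.7% of all nuclear genes.

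The silent genes were unevenly spread over gene families. Of 179 families of 10 or more members that share a symbol stem, 73 had 0 silent genes and 13 had 50% or more. At the silent end stood the major sperm protein genes *msp* (29 of 30), the nematode-specific peptide genes *nspa* (10 of 10) and *nspb* (10 of 12), and the sperm-specific *ssp* genes (9 of 12). Some *nspa*, *ssp* and *tbx* genes share an annotation name with another identifier, which makes their 0 counts uncertain. The *msp* genes are close copies of each other, and how reads that match several of them were counted is not given in the sources used here. Next were *fbxb*, F-box genes that may act in protein turnover, with 72 of 110 silent (65.5%), and *tbx*, T-box transcription factors of embryonic patterning, with 12 of 19. *tbx-2*, which acts in the pharynx, was the exception in that family, at 157, 112 and 185 TPM, while every other *tbx* gene averaged under 1 TPM.

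Chemoreceptor genes, the G-protein-coupled receptors that sensory neurons use to detect odours and tastes, formed 1335 members in 22 families. Of these, 564 were silent (42.2%) and 199 reached 1 TPM. Silence was most frequent in *srj* (64.1%), *srbc* (63.0%), *str* (54.1%) and *srw* (53.5%). The highest member was *srr-4*, with 66.2, 29.1 and 98.4 TPM, and none averaged 100 TPM. Receptors of this kind are known to be made in very few neurons each, and in whole larvae a level under the detection floor does not show that a gene is off. For a silent gene, a total of up to 3 counts over the 3 libraries allows 0.0494 CPM (counts scaled to the nuclear total), or 0.0959 TPM at the median length of silent genes, 864 bases.

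Several other large families lay on either side of the 17.7% silent over all nuclear genes. Of 158 *col* genes, most of which encode cuticle collagens, 63 were silent and 39 reached 1 TPM. The highest was *col-125* with 139, 64.1 and 43.7 TPM. C-type lectins, many of which respond to microbes, had 93 of 254 silent, and *clec-63* led them with 766, 537 and 271 TPM. Nuclear hormone receptors, a family much expanded in nematodes, had 37 of 278 silent and 192 at 1 TPM or more, led by *nhr-31* with 368, 356 and 569 TPM. Of 75 cytochrome P450 genes 8 were silent, and of 67 *ugt* genes, which encode glucuronosyltransferases, 3.

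**Figure D4:**
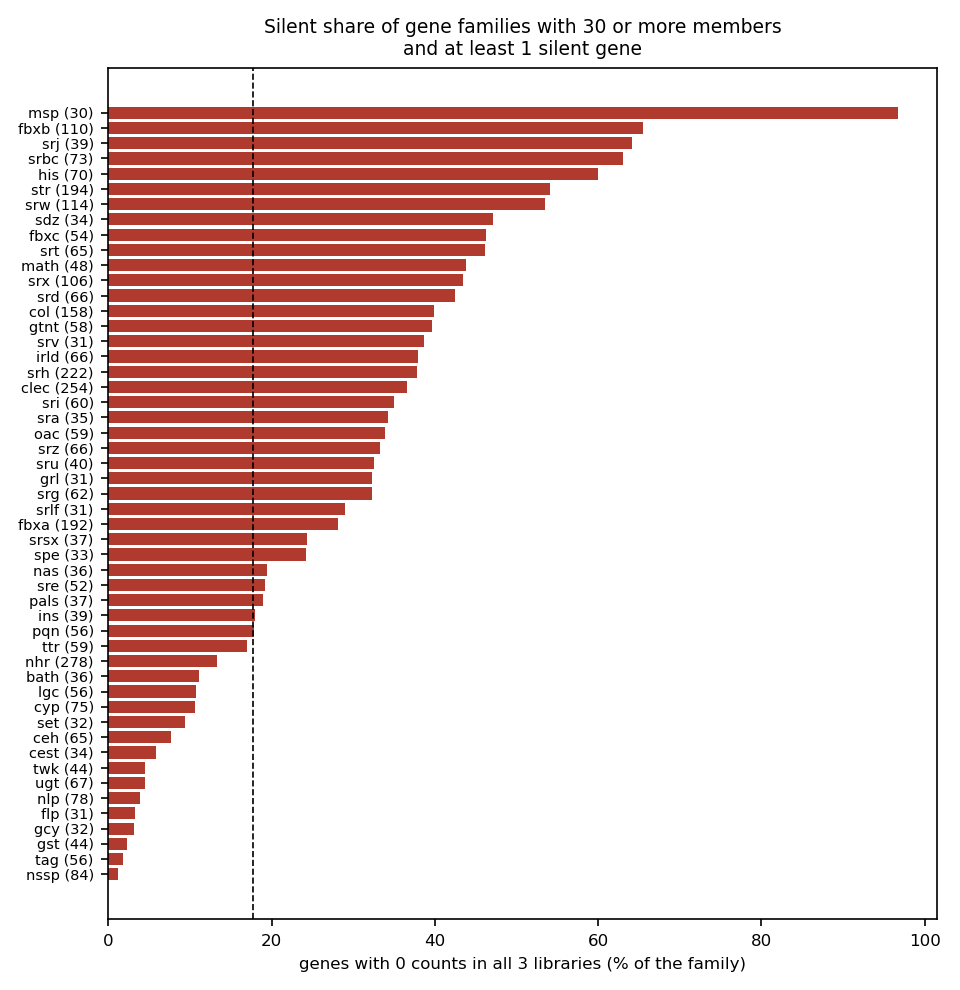
Share of members with 0 counts in all 3 libraries (horizontal axis, % of the family) for each of the 51 gene families of 30 or more members with at least 1 silent gene (number of members in parentheses). The dashed line is the share over all nuclear genes, 17.7%, and the bars run from 96.7% for *msp* to 1.19% for *nssp*. The 11 families of that size with 0 silent genes, such as *rpl* and *unc*, are not drawn.

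Silence went with the kind of name a gene carries and with its length. Among 11379 genes with a gene-class name 14.3% were silent, against 22.2% of 8476 genes with a sequence name alone, and the unnamed supplied 52.2% of all silent genes. Chemoreceptors supplied 15.6%. By quartile of deposited length, from short to long, 30.0%, 25.6%, 11.2% and 3.95% of genes were silent. The median length was 864 bases for silent genes and 1218 bases for the rest. A long gene gathers more counts at the same TPM, and what part of the trend that supplies was not tested. The longest silent genes were *rpms-1* (5971 bases), *vit-3* (4882), *vit-4* (4875), *Y113G7C.1* (4530) and an identifier outside the annotation, WBGene00019136 (4461). Whether any of these genes has a close copy, so that its reads were left uncounted, was not tested.

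For genes with a close copy, 0 counts had a different standing. The annotation gives 195 of the nuclear genes a name that at least 1 other identifier carries as well, as it does for duplicated loci. Of those 195, 190 were silent (97.4%), against 16.9% of the other 20185. Histone genes were among the families affected. Of 70 *his* genes, 42 were silent, but of the 34 without a shared name 8 were (23.5%). The highest histone genes carried no shared name. They were *his-37* with 555, 1855 and 2096 TPM, *his-41* with 718, 1111 and 1077 TPM, and *his-72*, a replacement histone H3.3, with 274, 197 and 215 TPM. Chemoreceptors changed little, with 41.5% silent among 1317 without a shared name, and *msp*, *nspb* and *fbxb* had no such names. Of the 10 silent *nspa* genes, 4 carried a name of their own. For the 190 genes, absence of RNA cannot be told apart from reads that were not assigned to either copy.

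Near-identical paralogs with separate names could differ widely in level. The muscle actins *act-1* and *act-3* had 42.2 and 159 TPM on average beside 3195 TPM for *act-4*. *gpd-2* and *gpd-3*, the major glyceraldehyde-3-phosphate dehydrogenases, had 91.2 and 44.8 TPM, and *gpd-1* and *gpd-4* 0.316 and 0.137 TPM. The myosin light chains *mlc-1* and *mlc-2* were closer to each other, at 134 and 204 TPM. These levels are uncertain, as the counting of shared reads is not given in the sources used here. They were listed together after their values had been seen.

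Silent genes were clustered along the chromosomes. Positions below are those of WBcel235, matched by identifier. The silent share was 8.56% on chromosome III, 12.1% on X, 13.9% on I, 19.5% on IV, 20.0% on II and 24.8% on V. Each chromosome was cut into left, middle and right segments of equal span. On the autosomes, 22.8% of 10674 genes in the outer segments were silent and 11.5% of 6470 in the middle ones. The contrast was steep on V, with 29.4% in the left, 13.9% in the middle and 32.0% in the right segment, and small on III, with 11.1%, 7.12% and 8.02%. A silent gene was followed by another in 47.1% of cases, where 17.7% of all genes were silent, and in 44.7% of cases with shared names left out.

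Runs of 5 or more silent neighbours numbered 105 and held 792 genes, 22.6% of those placed. The longest ran over 53 genes on chromosome V, from *irld-31* to *str-154* (2342016 to 2560739, 219 kb). It held 18 chemoreceptors and 6 pseudogenes, and it was flanked by *irld-30* at 0.440 TPM and by *gst-10*, a glutathione transferase, at 36.98 TPM. Of its 53 genes, 42 carried a shared name. The next, of 27 genes on V (8821866 to 8898539), held 14 histone genes and *rpms-1*, and 22 of its genes carried a shared name. Both runs therefore consist mostly of genes whose 0 counts are uncertain.

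Shared names were fewer or lacking in the next 3 runs by length. One of 23 genes on I (12347700 to 12411435) held 6 genes of the *oac* acyltransferase and *gtnt* families, and the gene to its left, *T09E11.10*, had 1 count in each library. It held 0 shared names. A run of 18 genes on II (1684042 to 1725693) held 11 F-box genes and 4 of the *btb* and *math* families. It too held 0 shared names, and it ended at *btb-9*, with 75, 345 and 10 counts. A run of 20 genes on IV (5218796 to 5264433) held 6 shared names. With genes inside the runs included, 42.3% of 664 pseudogenes and 16.8% of 19164 protein-coding genes were silent.

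The 3 libraries agreed in rank over the whole range of levels and less well gene by gene. Across the 20380 nuclear genes, Pearson's r of log2(TPM + 1) was 0.940 for libraries 1 and 2, 0.922 for 1 and 3 and 0.924 for 2 and 3, and Spearman's rho was 0.926, 0.910 and 0.907. Genes are not replicates of a library, so that these are descriptions. Over the 13029 genes of 1 TPM or more r was lower, at 0.881, 0.840 and 0.847, and the cause of the drop was not tested. Of these genes, 66.0%, 59.7% and 63.1% lay within 2-fold in the same 3 pairs, and 8.51%, 12.2% and 12.4% differed by more than 4-fold.

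The spread shrank with level but did not reach the counting error. The median SD of log2(TPM + 1) among libraries was 0.66 over genes of 1 TPM or more. By level it was 0.93 from 1 to 10 TPM, 0.58 from 10 to 100 TPM, 0.42 from 100 to 1000 TPM and 0.41 above. Counting error alone, worked out for log2 counts with no TPM added, had medians of about 0.29, 0.07, 0.025 and 0.0090 in those ranges. From 1 to 10 TPM the added 1 TPM damps the measured spread, so that 0.29 is not on the same scale. Above 10 TPM the spread was thus several times the counting error. As a check for a library deposited more than once, the counts of each pair were set against counting noise, and the chi-square statistic per gene was 158, 227 and 169.

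At 50 TPM or more, 3529 genes had a median SD of 0.45. In this set 319 genes (9.04%) had an SD above 1 and 36 an SD below 0.05. The steadiest was *rnr-2* (chromosome III, 4093308 to 4094921), at 204.3, 204.2 and 205.0 TPM, an SD of 0.0031. The next 9 were *gei-3*, *rab-3*, *paa-1*, *tat-1*, *smg-4*, *F44E2.3*, *alh-4*, *Y45G5AL.1* and *T13C2.3*, with SDs of 0.021 to 0.035. Of these 10 genes, 4 had an SD at or under their own counting error, as did 9 of the 36, so that their order is not resolved. *paa-1*, the structural subunit of protein phosphatase 2A, had 561, 545 and 546 TPM. Among the 14 listed genes often used as expression references, the median SD was 0.24, and *ama-1*, the large subunit of RNA polymerase II, had 134, 61.4 and 58.6 TPM.

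The least steady genes were mostly high in library 3. *B0410.3* (chromosome X, 2890569 to 2891491) had 67.6, 194 and 1419 TPM, and *mxl-3* (chromosome X, 13349639 to 13350804), a transcription factor that in *C. elegans* regulates lipases and responds to food, had 36.7, 19.2 and 308 TPM. Going the other way, the lipase-family gene *lips-15* had 248, 216 and 28.3 TPM and WBGene00020677 had 96.7, 52.7 and 4.19 TPM. The others of the 10 were *phf-30*, *ZK1127.3*, *lbp-7*, *vamp-8*, *F46C5.10* and *C15F1.1*, with SDs of 1.74 to 2.14. Of all 10, 7 were highest in library 3, as were 36.2% of all genes of 1 TPM or more.

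Some genes reached 50 TPM in a single library. In library 3 these were led by *F18E3.13* (0.423, 3.26 and 109 TPM, 33.3-fold above the higher of the others), *fmo-2* (chromosome IV, 10682524 to 10684367), a flavin monooxygenase induced by hypoxia signalling and fasting in this worm, with 3.50, 0.0427 and 65.1 TPM, and *F46C5.2*. *vhl-1*, which marks the hypoxia factor HIF-1 for degradation, had 5.39, 2.17 and 71.8 TPM. The ratios were smaller in the others. Library 2 was high for *D1005.4* (4.41, 56.6 and 4.13 TPM), *ttr-43*, *F56F11.2*, *F08G12.5* and *clc-3*, and library 1 for *swsn-3*, a chromatin remodelling subunit (117, 18.5 and 17.3 TPM), *anmt-2*, *wdr-20*, *ptr-21* and WBGene00013851.

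Gene length went with the differences between libraries. Each library's deviation from a gene's 3-library mean of log2(TPM + 1) was taken over the 13029 genes of 1 TPM or more. In library 1 the median deviation was -0.30 in the shortest quartile of genes (81 to 863 bases), -0.01 and 0.21 in the middle ones and 0.33 in the longest. In library 2 it was 0.06, -0.03, -0.10 and -0.23, and in library 3 0.27, 0.04, -0.08 and -0.04. Short genes thus read low and long genes high in library 1, relative to the others. The correlation of the deviation with log2 length over these genes was 0.331, -0.136 and -0.169 in libraries 1, 2 and 3. The share of mitochondrial counts was lowest in library 1 too, and its part in the trend was not tested.

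Some tissue lists differed between the libraries as well. The median deviation of muscle markers was 0.58 in library 1, -0.25 in library 2 and -0.34 in library 3, and 17 of 20 were highest in library 1. After the median deviation of genes of like length was subtracted, 0.32, -0.06 and -0.32 remained. Pharynx markers had 0.67, -0.15 and -0.72, or 0.61, -0.06 and -0.69 after the subtraction. Intestinal markers had 0.51, -0.02 and -0.56, or 0.33, 0.13 and -0.60. Genes that define single transmitters, at 0.26, 0.02 and -0.53 after the subtraction, also differed. So did genes for primordial germ cells and P granules, at 0.43, -0.19 and -0.24. The pan-neuronal and epidermal lists differed less once length was taken out. Pan-neuronal markers had 0.30, -0.34 and 0.05 as measured, and -0.04, -0.13 and 0.08 after the subtraction. Epidermal and seam markers had 0.17, -0.23 and 0.21, or -0.09, -0.09 and 0.21 after the subtraction. Coelomocyte and excretory markers differed little as measured, at -0.002, 0.002 and -0.04. After the subtraction they differed more, at -0.25, 0.06 and -0.01. Over all genes of 1 TPM or more, 39.2%, 24.6% and 36.2% were highest in libraries 1, 2 and 3, and the medians were 0.11, -0.10 and 0.02.

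Collagens and carboxylesterases had the same pattern. The 39 *col* genes of 1 TPM or more had median deviations of 0.74, -0.32 and -0.55, and 27 were highest in library 1. For the 25 *cest* genes the values were 0.73, -0.00 and -0.78. Transthyretin-like *ttr* genes went the other way, with -0.80, 0.42 and 0.57, or -0.47, 0.36 and 0.31 with length taken out, and 1 of 47 was highest in library 1. Their highest member, *ttr-33*, had 950.2, 4079.5 and 2706 TPM. Neuropeptide genes of the *nlp* family were at -0.53, 0.15 and 0.30, of which -0.26, 0.10 and 0.06 remained beyond length.

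Cell cycle genes were mostly highest in library 3. Of 26 replication and cell cycle genes, 18 were highest in it (69.2%), with median deviations of 0.02, -0.15 and 0.29. The *fbxa* and *ugt* families were also highest there, with -0.19, -0.41 and 0.38 and with 0.18, -0.34 and 0.41. The *hsp* genes were lowest in library 3, at 0.35, -0.18 and -0.28, and at 0.14, -0.06 and -0.19 beyond length. The *cyp* genes, at 0.00, 0.02 and -0.19, were lowest in library 3 as measured. Beyond length they were at -0.20, 0.12 and -0.12, lowest in library 1. Ribosomal proteins were at -0.10, 0.20 and -0.10, and at 0.18, 0.13 and -0.35 beyond length. What set the libraries apart in these groups was not tested.

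**Figure D5:**
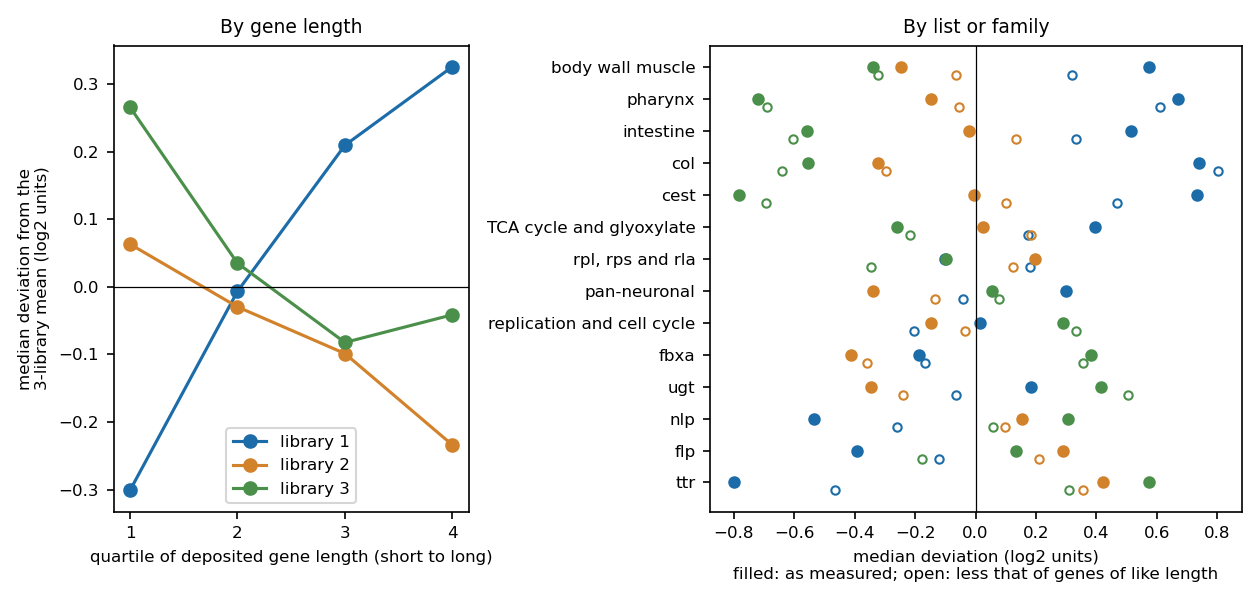
Median deviation of each library from the 3-library mean of log2(TPM + 1), over genes of 1 TPM or more. Left, by quartile of deposited gene length, where library 1 climbs from -0.30 to 0.33; right, by list or family, as measured (filled) and less the deviation of genes of like length (open).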

How the data were processed

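The authors deposited raw counts and a length per gene, and normalized log2 values. To within 1e-06, these equal log2 of a count scaled by its library's factor, plus 8. The genome build named is ce10, per the submitters' processing notes. Which aligner, counter, annotation and strand setting were used, and how reads matching more than 1 gene were treated, is not given in the sources used here, so overlapping, antisense and near-identical genes are uncertain. The 3 wild-type columns were used and 0 sample columns had no sample. NuGEN Ovation and Illumina TruSeq kits were used per the labels' protocols.

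TPM were computed from counts and deposited lengths over nuclear genes, and log2 values have 1 TPM added. Deposited lengths were within 10% of the WBcel235 exon length for 67.4% of genes. Ensembl's WBcel235 annotation holds 19870 of the identifiers. The other 522 hold 0.703% to 0.820% of nuclear counts. Positions are from WBcel235, a different build from ce10, with no conversion. For 19844 genes the symbol is RefSeq's, from its WBcel235 table. With 1 group, no comparison was tested: values are given per library, with SD over 3 libraries, whose spread may be technical in part. Floors (3 counts) cover counting error only. edgeR 4.0.16 and DESeq2 1.42.0 gave alternative scaling factors in R 4.3.3, and other values came from Python 3.11.15 with pandas 2.3.3. The scripts were tested on simulated data.

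Members and lists were chosen with earlier results of these data known. Genes were named by rule: the 25 highest, the highest per chromosome, the 10 largest and 10 smallest spreads among genes of 50 TPM or more, 5 per library with the largest ratio to the others, the 5 longest silent, up to 4 per list, the highest of each family described, members behind a count of 5 or fewer, and *mrg-1*. Other list members named for their role were chosen after their values were seen.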

Additional observations from a re-analysis of the deposited data

How the results depend on the processing

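Recomputed under each alternative, 60 of 76 main values stayed within their spread or, for counts, within 1.5 times. All counts of silent, detected and expressed genes did, as did leaving out the 195 genes with a shared name and the identifiers outside the annotation (both chosen after seeing the data). Leaving out 1 library gave a mean r of 0.922 to 0.940 (0.929 with all 3) and a median SD of 0.50 to 0.57 (0.66). A median SD over fewer libraries is lower at the same spread, so that these SDs are not directly comparable with 0.66. With mitochondrially encoded genes kept, the top 100 share was 42.97% and the SD 0.69. The SD was 0.60 with TMM factors, 0.59 with DESeq2 size factors, 0.72 with 0.1 TPM added, 0.46 with no level filter and 0.59 with a 5 TPM filter. The mean r was 0.913 with 0.1 TPM added, 0.856 over genes of 1 TPM or more, 0.821 over 5 TPM or more and 0.941 on the authors' deposited log2 values. The X minus autosome difference reversed to 0.70 with no level filter, which admits silent genes. The cause of the other shifts was not tested. Of 300 list and gene values, 268 stayed within their spread, and 22 of the 32 that moved did so with mitochondrial genes kept, where all 22 were lower. No paired analysis was possible because a single group is described and no result comes from a test. Counting error was a larger part of the spread from 1 to 10 TPM than above, where the number of libraries, 3, limits precision.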
